A study of Mus musculus with 18 samples.

Results

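The 59 genes described here encode the machinery that carries a new secretory protein into the endoplasmic reticulum (ER), attaches its first sugars and moves it on to the Golgi. They were taken by gene symbol from a table of 12960 detected genes in mouse B lineage cells, and all 59 were present and passed the filter on low values. By role they comprise 6 proteins of the signal recognition particle (SRP) and 2 of its receptor, 5 of the Sec61 channel and its partners, 4 of the translocon-associated TRAP complex, 5 of signal peptidase, 9 of oligosaccharyltransferase, 11 of the COPII coat, 8 cargo receptors and fusion proteins, 7 of the COPI coat and 2 KDEL receptors.

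A secretory protein is recognised by its signal sequence as it leaves the ribosome. SRP binds that sequence, docks on its receptor at the ER membrane and hands the chain to the Sec61 channel, where TRAP assists, signal peptidase removes the signal and oligosaccharyltransferase adds the N-linked glycan. COPII vesicles then carry folded cargo towards the Golgi, and COPI vesicles return escaped ER residents, which the KDEL receptors recognise. Plasma cells secrete antibody at a high rate and are known for an enlarged ER. The transcription factor XBP1 drives much of that enlargement.

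The study asked how G9a, the histone H3 lysine 9 methyltransferase encoded by Ehmt2, controls gene programs as B cells differentiate. Spleen cells of mice gave 18 libraries from 1000 cells each, in 6 groups of n = 3. Control mice (Ctrl) were heterozygous for a Cre allele that acts in the B lineage. Knockout mice (KO) were G9afl/fl and carried the same Cre allele, so the allele was shared by both genotypes. Activated B cells (B220+GL7+) and plasma cells (CD138+ with middle or low B220) were sorted 72 h after 50 µg of lipopolysaccharide (LPS) in 100 µl was given by tail vein, with Zombie yellow, F4/80, Cd11b and Thy1.2 positive cells gated out. Naive B cells came from mice that had not been given LPS and were enriched by depletion of CD43+ cells on beads. Cell type, LPS and isolation therefore changed together between naive and activated cells and cannot be told apart. Whether replicates were separate animals is not stated. The p-values measure only how far these samples spread, which may be technical.

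Levels are RPKM (read numbers corrected for gene length and library size) divided by 1 scaling factor per library, with means ± SD over n = 3 libraries. Changes are differences of log2(scaled RPKM + 1) with the standard error (SE) and the adjusted p-value of limma, taken over all 12787 tested genes; a gene is called when that p is under 0.05. The added 1 makes the changes of genes with low RPKM smaller than their ratios. Read counts were not used, and depth estimated from the steps between low values was 2.63 to 10.81 M reads in activated and 5.21 to 6.82 M in plasma cell libraries. For activated replicates 1, 3 and 4 it was 6.77, 7.69 and 6.79 M in Ctrl and 10.81, 2.63 and 10.7 M in KO. In naive libraries it was 1.64 to 4.03 M in the 5 of 6 that gave an estimate. Naive libraries varied most, with a median SD per gene of 0.37 (Ctrl) and 0.39 (KO) on the log2 scale against 0.13 in each of the 4 groups from LPS-treated mice. Ehmt2 itself was not called as different in any cell type. It measured 27.7, 16.7 and 13.8 in naive Ctrl and 13.9, 23.3 and 13.9 in naive KO. In activated cells it measured 21.6, 19.5 and 25.7 in Ctrl and 23.3, 22.5 and 21.6 in KO. In plasma cells it measured 17.6, 16.2 and 17.8 in Ctrl and 14.7, 12.3 and 14.3 in KO. The plasma cell groups did not overlap, with a change of -0.30 (SE 0.10, adjusted p = 0.0997). RPKM is taken over the whole gene, so the deletion itself was not checked. In bulk samples, fewer cells of a type and less RNA per cell cannot be told apart.

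The promoters of these genes were read for sequences that the unfolded protein response factors are known to bind, because XBP1 is the best known activator of this gene set. RefSeq on GRCm38.p6 gave a window from 250 bases before to 50 after the start for 48 of the 59 genes. The core of the UPR element, GACGTGG on either strand, was present in 12 of the 48 (25.0%), against 429 of 10353 table genes with such a window (4.14%). It was found in 5 of 11 COPII and 4 of 6 COPI genes with a window, and in 2 of 18 genes of the Sec61, TRAP, signal peptidase and oligosaccharyltransferase groups. The ERSE motif (CCAAT, 9 bases, CCACG) was in 0 of the 48 (0.193% of table genes). ERSE-II (ATTGG, 1 base, CCACG) was in 1, Krtcap2 (0.0773% of table genes). ERSE and ERSE-II end in CCACG, which overlaps the core on its other strand; CCACG alone was in 34 of the 48 (70.8%) and in 50.0% of table genes. A match in these windows is a description of the letters and not a measured binding site. The sites of 6 genes are shown because genotype divided genes that share the core: the first 3 are genes that were lower in activated KO cells and the last 3 were not called. The core is in capitals and each is written on the strand that spells GACGTGG.
Sec24d, chr3:123267460-123267488, plus strand: cccgggcgcctGACGTGGcactagcaacc
Sec63, chr10:42761463-42761491, minus strand: tcactgagggaGACGTGGcgcgcgcagca
Stx5a, chr19:8741422-8741450, minus strand: cctaactcggtGACGTGGctgctgcgcca
Sec13, chr6:113740666-113740694, plus strand: ccacggcctcgGACGTGGcagctcaaaac
Copb1, chr7:114254691-114254719, plus strand: agtccttggctGACGTGGaagggggcggg
Copb2, chr9:98563713-98563741, minus strand: gccaacccactGACGTGGaacttccggga

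Control cells show how the machinery built up. From naive to activated B cells 48 of the 59 genes were higher and 3 were lower, with a median change of 0.96, while the median of all tested genes was -0.29 (19% of all genes were called higher and 39.4% lower). In the next step, from activated B cells to plasma cells, 58 of 59 were higher and 0 lower (58 at an unadjusted p under 0.05), with a median of 1.80, while 24.9% of all genes were called higher and 27.2% lower. The activated Ctrl libraries enter both steps. From activated to plasma cells, KO mice also had 58 higher and 0 lower (58 unadjusted), with a median of 1.86 (24.6% of all genes higher, 28.4% lower). Sec24b, 1 of 4 Sec24 cargo adaptors of COPII, was the exception in both genotypes. The RPKM of the 59 genes summed to 3103 ± 122 in naive, 6031 ± 108 in activated and 22451 ± 846 in plasma cell Ctrl libraries. Summed markers of other blood cells were mostly higher in naive than in activated Ctrl libraries. Erythroid markers were at 284.2 to 373.6 and 4.02 to 4.98, and platelet markers at 46.81 to 105 and 1.238 to 1.368. Dendritic cell markers went the other way, with mean sums of 21.82 and 33.84. The plasma cell marker Sdc1 was at 4.71 to 10.1 in naive and 0.734 to 1.28 in activated Ctrl. The part of other cells in the first step was not tested. With quantile normalization the median of all genes in the first step moved to -0.06, and the share of called genes that were higher moved from 32.5% to 48.5%. With RPKM as deposited the all-gene median in the second step was -0.14 in Ctrl and -0.11 in KO, in place of -0.03 and -0.02, and the share higher fell to 33.6% and 35.8% from 47.7% and 46.4%.

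**Figure D1:**
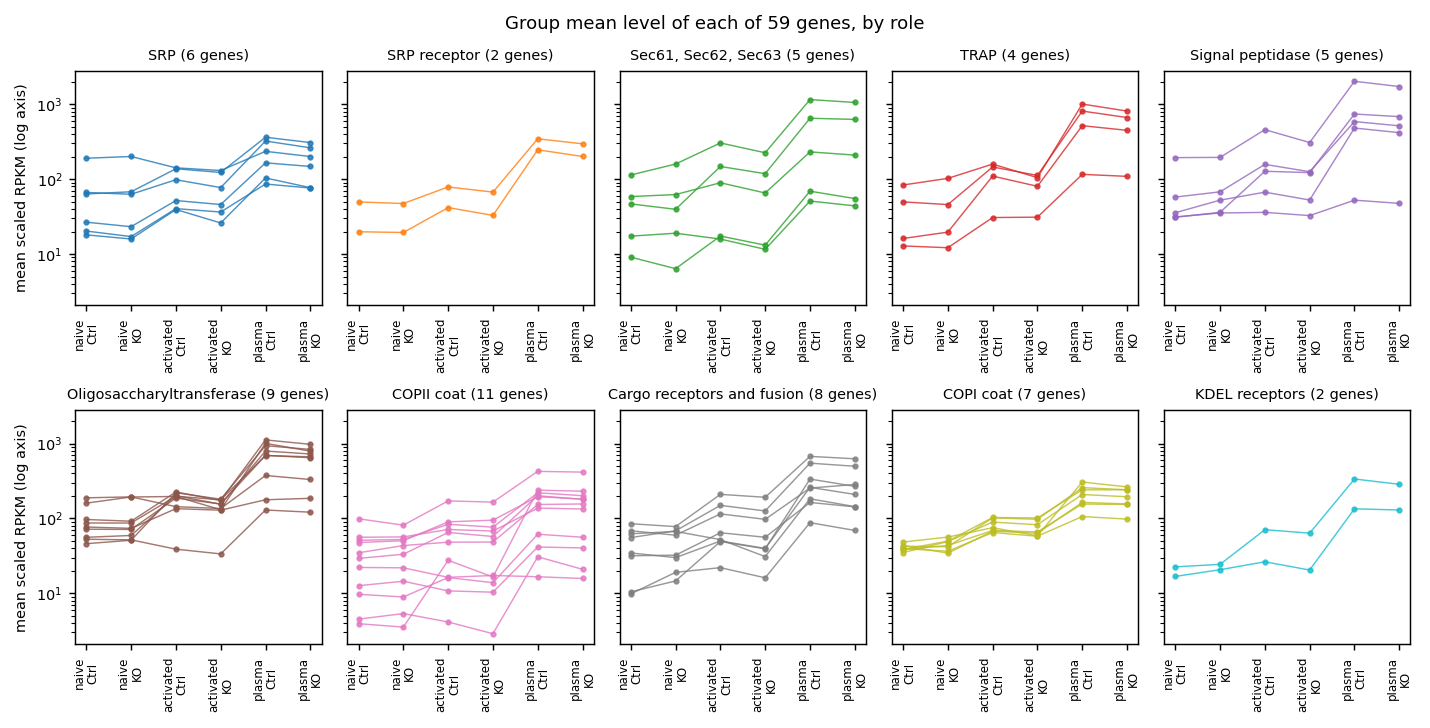
Mean scaled RPKM (log axis) of each of the 59 genes in the 6 groups, 1 panel per role and 1 line per gene, each point being the mean of 3 libraries. Nearly all lines climb from activated to plasma cells in both genotypes, and Sec24b in the COPII panel does not.

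TRAP, signal peptidase and oligosaccharyltransferase were among the steeper rises in the first step, with medians of 1.38, 1.24 and 1.22. The Sec61 group stood at 0.93, below the 0.96 of all 59, with 4 of its 5 genes called higher. Ssr3, a TRAP subunit, went from 17.4, 16.7 and 14.3 in naive to 111, 116 and 103 in activated Ctrl libraries (change 2.70, SE 0.17, adjusted p = 1.28e-09). The lowest activated library was several times the highest naive one. Sec61a1, the pore of the channel, rose by 1.66 (SE 0.15, adjusted p = 5.99e-08), and Spcs3, a signal peptidase subunit, by 2.03 (SE 0.12, adjusted p = 6.45e-10). In oligosaccharyltransferase, the subunit gene Rpn1 rose by 2.23 (SE 0.09, adjusted p = 3.4e-12), from 46.1 ± 1.56 to 221 ± 13.9. Stt3a, the catalytic subunit that acts on chains still passing through the channel, rose by 1.83 (SE 0.10, adjusted p = 2.46e-10). In the same step 3 genes were lower. They were Srp14, which with SRP9 pauses translation (-0.42, SE 0.10, adjusted p = 0.00138), and the oligosaccharyltransferase subunits Dad1 (-0.43, SE 0.11, adjusted p = 0.00261) and Ost4 (-0.39, SE 0.11, adjusted p = 0.00752). Of the exonic bases of Ost4, 53.2% overlap Agbl5 on the other strand, and strand was not stated for the counting, so the reads of those 2 genes cannot be told apart.

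Beyond the ER the first step was uneven within the COPII coat and even within COPI. All 7 COPI genes were higher, by 0.64 (Cope) to 1.43 (Arcn1). In COPII 8 of 11 were higher, led by Sec24d, another cargo adaptor, which went from 5.45, 3 and 3.34 to 27.5, 29.9 and 25.4 (change 2.57, SE 0.21, adjusted p = 2.29e-08). Naive and activated values of Sec24d were far apart. Sec24a (-0.09, SE 0.19, adjusted p = 0.711), Sec24b (-0.40, SE 0.22, adjusted p = 0.135) and Sec16a, which marks ER exit sites (-0.21, SE 0.19, adjusted p = 0.353), were not called. The calls of Sec23a, Sec24c and Sec31a did not hold when single libraries were left out. Sec23a was lost without activated Ctrl replicates 1 or 3 or naive Ctrl replicate 1, Sec24c without activated Ctrl replicates 1 or 3 or naive Ctrl replicate 3, and Sec31a without activated Ctrl replicate 1 or naive Ctrl replicates 2 or 3. Among the cargo receptors and fusion proteins 6 of 8 were higher. Lman1, the lectin that ferries glycoproteins out of the ER, rose by 2.15 (SE 0.24, adjusted p = 9.38e-07), and Kdelr2 by 1.65 (SE 0.20, adjusted p = 2.66e-06). Stx5a, the Golgi SNARE that fuses incoming vesicles, was not called (-0.23, SE 0.16, adjusted p = 0.232).

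In the second step, from activated B cells to plasma cells of Ctrl mice, SRP receptor, TRAP and signal peptidase had the steeper medians (2.33, 2.35 and 2.14), KDEL receptors stood at 2.26, and SRP and COPI had the lower ones (1.38 and 1.23). Sec24d rose 8.40-fold on the scale used, from 27.6 ± 2.22 to 239 ± 5.26 (change 3.07, SE 0.10, adjusted p = 1.49e-12). In KO cells it rose by 3.74 (SE 0.10, adjusted p = 2.17e-13). Spcs1, a signal peptidase subunit, rose by 2.83 (SE 0.09, adjusted p = 9.87e-13) in Ctrl, Lman1 by 2.75 (SE 0.07, adjusted p = 1.52e-13), Ssr4 of TRAP by 2.66 (SE 0.10, adjusted p = 6.08e-12) and Sec24a by 2.63 (SE 0.10, adjusted p = 9.63e-12). Sec11c, a catalytic subunit of signal peptidase, reached the highest level of the 59, at 1916, 2217 and 1952 in plasma cell Ctrl against 435, 453 and 487 in activated Ctrl. The smallest called changes were those of Stt3b, which glycosylates sites that STT3A skipped (0.39, SE 0.07, adjusted p = 0.000381), and Sec11a, the other catalytic subunit of signal peptidase (0.53, SE 0.07, adjusted p = 1.45e-05). Stt3b was not called with RPKM as deposited or with quantile normalization. Sec24b measured 16.3, 16.6 and 16.2 in activated and 17.5, 14.2 and 18.2 in plasma cell Ctrl, and its change was 0.02 (95% interval -0.18 to 0.22, adjusted p = 0.914).

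Related genes therefore changed their balance, and this was measured as the ratio of their RPKM in each library. The activated libraries (3 Ctrl and 3 KO) were compared with the 6 plasma cell libraries by an exact two-sided permutation test, for 8 pairs. In 7 of the 8 the ratio differed (exact permutation p = 0.002165, the smallest that 6 against 6 allows, adjusted p = 0.002474). The ratios come from the same libraries and values as the changes above, so this test is not separate support for them. It took Ctrl and KO libraries of a cell type as interchangeable. The share among other pairs of genes was not computed. Sec11c over Sec11a was 4.64 to 6.46 in naive, 8.75 to 13.4 in activated and 35.7 to 39.7 in plasma cell libraries. Stt3a over Stt3b moved from 1.05 to 1.58 in activated to 3.83 to 4.998 in plasma cells, having been 0.617 to 0.942 in naive cells. Stt3b thus had the higher RPKM of the 2 in every naive library and Stt3a in every activated and plasma cell library. The gene models behind the RPKM were not given, and the side of 1 on which a ratio lies depends on their gene lengths.

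In the COPII coat Sec24d over Sec24c went from 0.186 to 0.405 in activated to 1.62 to 1.93 in plasma cells, and Sec24a over Sec24b from 0.144 to 0.259 to 1.27 to 2.10. Both adaptor pairs changed their order in RPKM. Sec23b over Sec23a, the inner coat proteins, and Sar1b over Sar1a, the GTPases that start the coat, moved less and downwards, with differences of -0.33 and -0.37 on the log2 scale. Among cargo lectins Lman1 over Lman2 went from 0.675 to 0.826 to 1.85 to 2.15. Kdelr2 over Kdelr1 differed by -0.28 with an exact permutation p = 0.05195 and adjusted p = 0.05195. Between KO and Ctrl within a cell type, the exact test of 3 against 3 cannot go below p = 0.1, and no pair had a smaller adjusted p. In activated cells Sec11c over Sec11a was 11.8 to 13.4 in Ctrl and 8.75 to 9.86 in KO, and Sec24d over Sec24c was 0.375 to 0.405 and 0.186 to 0.302, so the groups did not overlap.

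**Figure D2:**
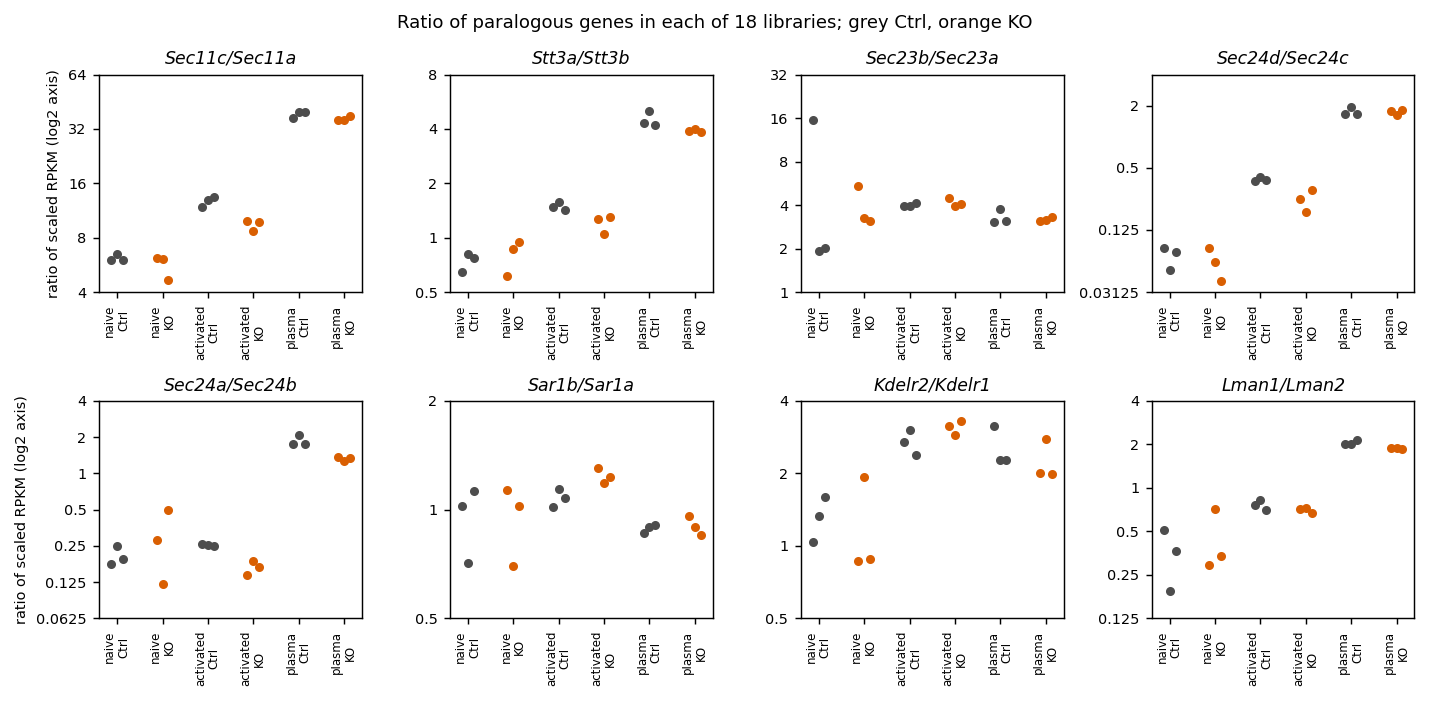
Ratio of 2 related genes (scaled RPKM, log2 axis) in each of the 18 libraries for 8 pairs, grey for Ctrl and orange for KO. In plasma cells Sec11c exceeds Sec11a by 35.7 to 39.7 times, while Stt3a over Stt3b, Sec24d over Sec24c, Sec24a over Sec24b and Lman1 over Lman2 go from below 1 in naive to above 1 in plasma cells.

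In activated B cells, genes of ER targeting, the channel, glycosylation and cargo reception were among those lower in KO mice. Of the 59 genes, 29 were lower in KO than in Ctrl and 0 higher by limma (34 at an unadjusted p under 0.05), while 7.62% of all genes were called lower and 6.84% higher. The median change of the 59 was -0.21, against -0.02 over all tested genes, and 55 of the 59 had a negative sign. In 36 of them every KO library lay below every Ctrl library, a separation that 16% of all genes had in that direction. The summed RPKM was 6031 ± 108 in Ctrl and 4996 ± 165 in KO. The ER membrane groups (Sec61, TRAP, signal peptidase and oligosaccharyltransferase) held 16 of the calls among 23 genes, with a median of -0.34, and the COPII and COPI coats 3 among 18, with a median of -0.08. The difference between those groups of genes was not tested. The count of 29 depended on which libraries gave the estimate of spread: it was 21 in a fit of the 6 activated libraries and 5 in a fit of all 18.

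**Figure D3:**
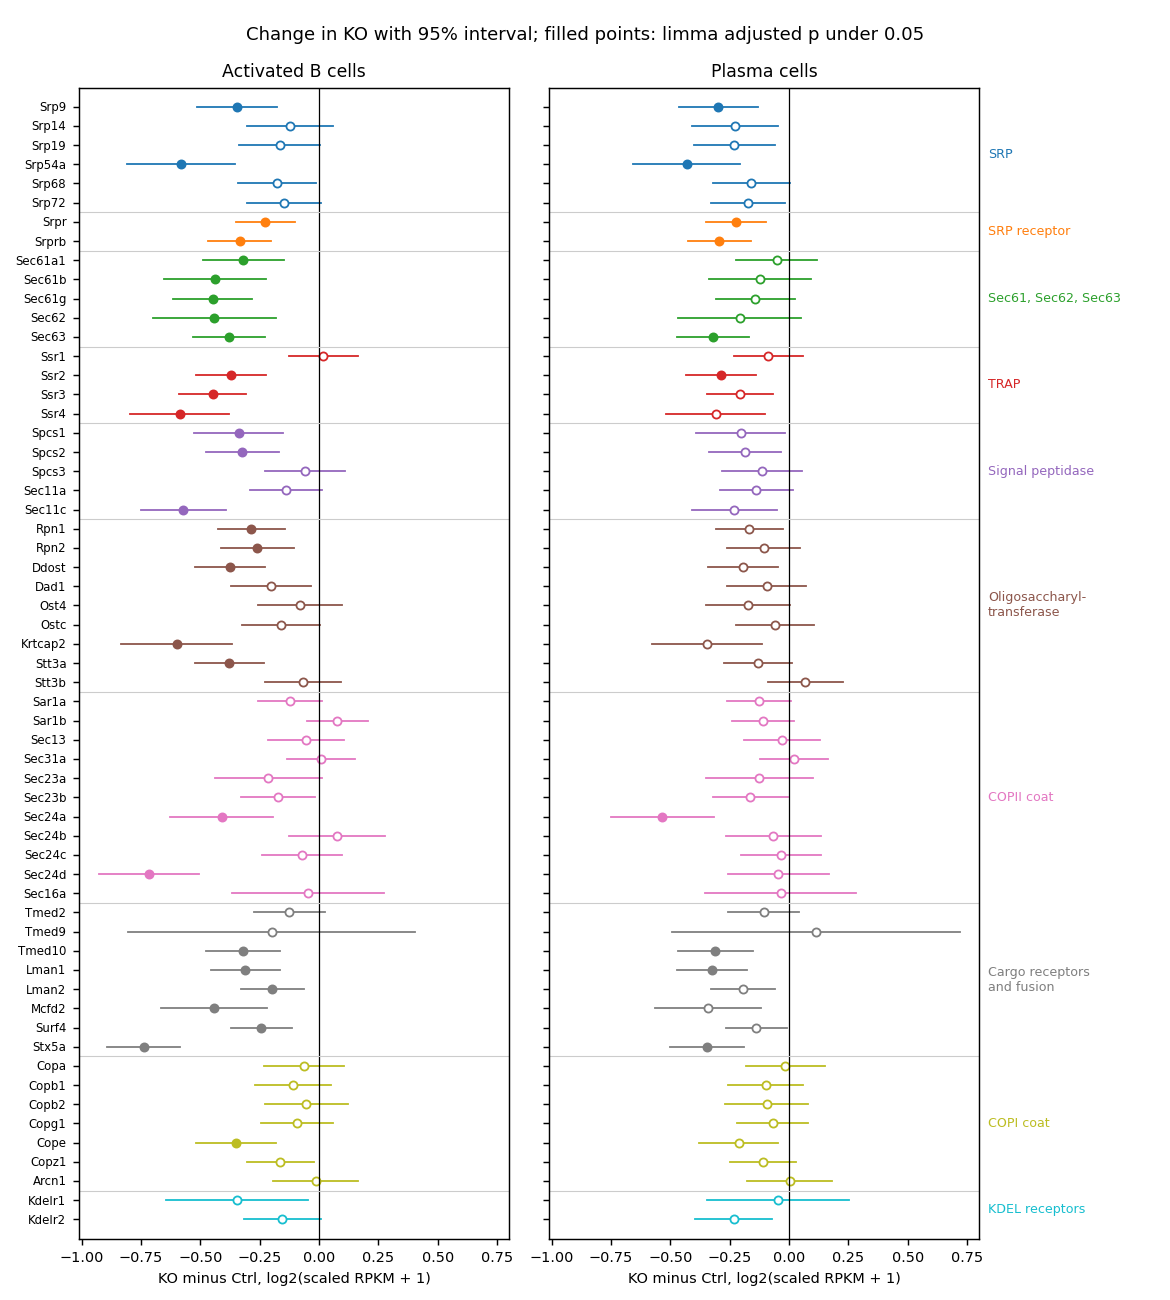
Change in KO on the log2(scaled RPKM + 1) scale with its 95% interval for each of the 59 genes in activated B cells (left) and plasma cells (right), coloured by role, from n = 3 libraries per group; filled points passed limma at an adjusted p under 0.05. Filled points on the left number 29 and gather in the groups from SRP receptor to oligosaccharyltransferase and in the cargo receptors, and those on the right number 10.

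Targeting to the ER was touched in part. Both receptor genes were lower, Srprb by -0.33 (SE 0.06, adjusted p = 0.00286) and Srpr by -0.23 (SE 0.06, adjusted p = 0.0186). In SRP itself 2 of 6 were lower. Srp54a, the subunit that reads the signal sequence, measured 41.2, 42.4 and 34.5 in Ctrl and 29.4, 26.0 and 22.6 in KO (-0.58, SE 0.11, adjusted p = 0.00257). Its groups did not overlap, but Srp54a has near-identical copies (Srp54b and Srp54c) with which the counting could share reads. Srp9 was lower by -0.35 (SE 0.08, adjusted p = 0.00881). The call of Srpr was lost without Ctrl replicate 3, KO replicate 1 or KO replicate 3 (adjusted p = 0.0566, 0.0542 and 0.0515).

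At the channel all 5 genes were lower. Sec61g, the small subunit of the channel, measured 84.6, 90.4 and 93.7 in Ctrl and 62.8, 63.3 and 70.1 in KO (-0.45, SE 0.08, adjusted p = 0.00168). Sec61b, the other small subunit, measured 278, 308 and 328 in Ctrl and 229, 194 and 253 in KO (-0.44, SE 0.10, adjusted p = 0.00971). Every KO library lay below every Ctrl library for both. Sec62 (-0.44, SE 0.12, adjusted p = 0.0247) and Sec63 (-0.38, SE 0.07, adjusted p = 0.00294), which help short and slow chains to enter, and Sec61a1 (-0.32, SE 0.08, adjusted p = 0.0151) completed the group. Sec61a1 was no longer called without Ctrl replicates 1 or 3 or KO replicates 1 or 4 (adjusted p = 0.054, 0.0616, 0.0713 and 0.052), nor Sec62 without Ctrl replicates 3 or 4 or KO replicate 3 (adjusted p = 0.0565, 0.0977 and 0.0813).

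TRAP and signal peptidase each held members on both sides. Ssr4, the TRAP delta subunit (chrX:73787028-73790830, plus strand, GRCm38), measured 133, 164 and 180 in Ctrl and 105, 100 and 109 in KO (-0.59, SE 0.10, adjusted p = 0.00136). Ssr3 was lower by -0.45 (SE 0.07, adjusted p = 0.000486) and Ssr2 by -0.37 (SE 0.07, adjusted p = 0.0027). Ssr1, the TRAP alpha subunit, stayed level at 32.1, 32.1 and 27.9 in Ctrl and 30, 31.5 and 31.7 in KO, with a 95% interval of -0.13 to 0.16. Sec11c measured 435, 453 and 487 in Ctrl and 314, 279 and 333 in KO, and the groups lay well apart (-0.57, SE 0.08, adjusted p = 0.000502). Spcs1 (-0.34, SE 0.09, adjusted p = 0.0186) and Spcs2 (-0.32, SE 0.07, adjusted p = 0.00811), which are accessory subunits, were lower too, whereas Sec11a (95% interval -0.29 to 0.01) and Spcs3 (-0.23 to 0.11) were not called. The call of Spcs1 was lost without Ctrl replicate 4 or KO replicates 1 or 3 (adjusted p = 0.0937, 0.0762 and 0.0526).

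Oligosaccharyltransferase had 5 of 9 genes lower. Krtcap2, a subunit of the STT3A form of the enzyme (chr3:89245966-89249906, plus strand, GRCm38), measured 188, 202 and 200 in Ctrl and 138, 105 and 150 in KO (-0.60, SE 0.11, adjusted p = 0.0024). The highest KO value was below the lowest Ctrl value; 15.7% of its exonic bases overlap Trim46 on the other strand. Stt3a itself was lower by -0.38 (SE 0.07, adjusted p = 0.00224), Ddost by -0.38 (SE 0.07, adjusted p = 0.00258) and Rpn1 by -0.28 (SE 0.07, adjusted p = 0.0104). Stt3b was not called, with a 95% interval of -0.23 to 0.09. The fifth call, Rpn2 (-0.26, SE 0.07, adjusted p = 0.0269), was lost without Ctrl replicates 1 or 3 or KO replicates 1 or 3 (adjusted p = 0.112, 0.0842, 0.0815 and 0.0822).

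In the COPII coat the calls were 2 adaptors. Sec24d (chr3:123267455-123365641, plus strand, GRCm38) measured 27.5, 29.9 and 25.4 in Ctrl and 17.0, 13.5 and 19.1 in KO (-0.72, SE 0.10, adjusted p = 0.000304). Sec24a measured 4.23, 4.21 and 4 in Ctrl and 2.47, 3.44 and 2.77 in KO (-0.41, SE 0.10, adjusted p = 0.0142), and was not called without KO replicate 1 (adjusted p = 0.065). Neither adaptor had overlapping groups. The other 9 were not called. Of the outer cage, Sec31a (0.01) and Sec13 (-0.05) had 95% intervals of -0.13 to 0.15 and -0.21 to 0.11. The inner coat genes Sec23a (-0.21) and Sec23b (-0.17) had intervals of -0.44 to 0.01 and -0.33 to -0.02, with adjusted p = 0.215 and 0.144. The GTPases Sar1a (-0.12) and Sar1b (0.08) had intervals of -0.26 to 0.01 and -0.05 to 0.21. In COPI, Cope was lower by -0.35 (SE 0.08, adjusted p = 0.00856). The other 6 were not called, and Copa, the largest COPI subunit, measured 73.6, 69.5 and 64.5 in Ctrl and 66.9, 64.2 and 67.2 in KO, with overlapping groups. The KDEL receptors were not called by limma (0 of 2, 1 of 2 at an unadjusted p under 0.05), with Kdelr1 at -0.35 (SE 0.14, adjusted p = 0.121).

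Among cargo receptors and fusion proteins 6 of 8 were lower. Stx5a (chr19:8741413-8756069, plus strand, GRCm38) had the largest change of the 59, measuring 52.6, 52.5 and 51.6 in Ctrl and 32.2, 27.6 and 33.1 in KO (-0.74, SE 0.07, adjusted p = 1.46e-05). The Ctrl values were tight and all KO values lay far below. Mcfd2, the partner of Lman1 (-0.44, SE 0.10, adjusted p = 0.0112), Tmed10, a p24 cargo receptor (-0.32, SE 0.07, adjusted p = 0.00954), and Lman1 (-0.31, SE 0.07, adjusted p = 0.00783) were lower. Surf4, a cargo receptor for soluble proteins (-0.24, SE 0.06, adjusted p = 0.0139), and Lman2 (-0.20, SE 0.06, adjusted p = 0.0488) were lower too. Mcfd2 was not called without KO replicates 1 or 3 (adjusted p = 0.0532 and 0.0501), Surf4 without Ctrl replicate 1 or KO replicate 1 (0.0585 and 0.0668), and Lman2 without any activated library other than KO replicate 4 (0.0821 to 0.161) or with RPKM as deposited (0.0521). Tmed9 was the noisiest member, with 131, 72.0 and 142 in Ctrl and 77.2, 119 and 95.7 in KO, and its 95% interval was -0.81 to 0.41.

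**Figure D4:**
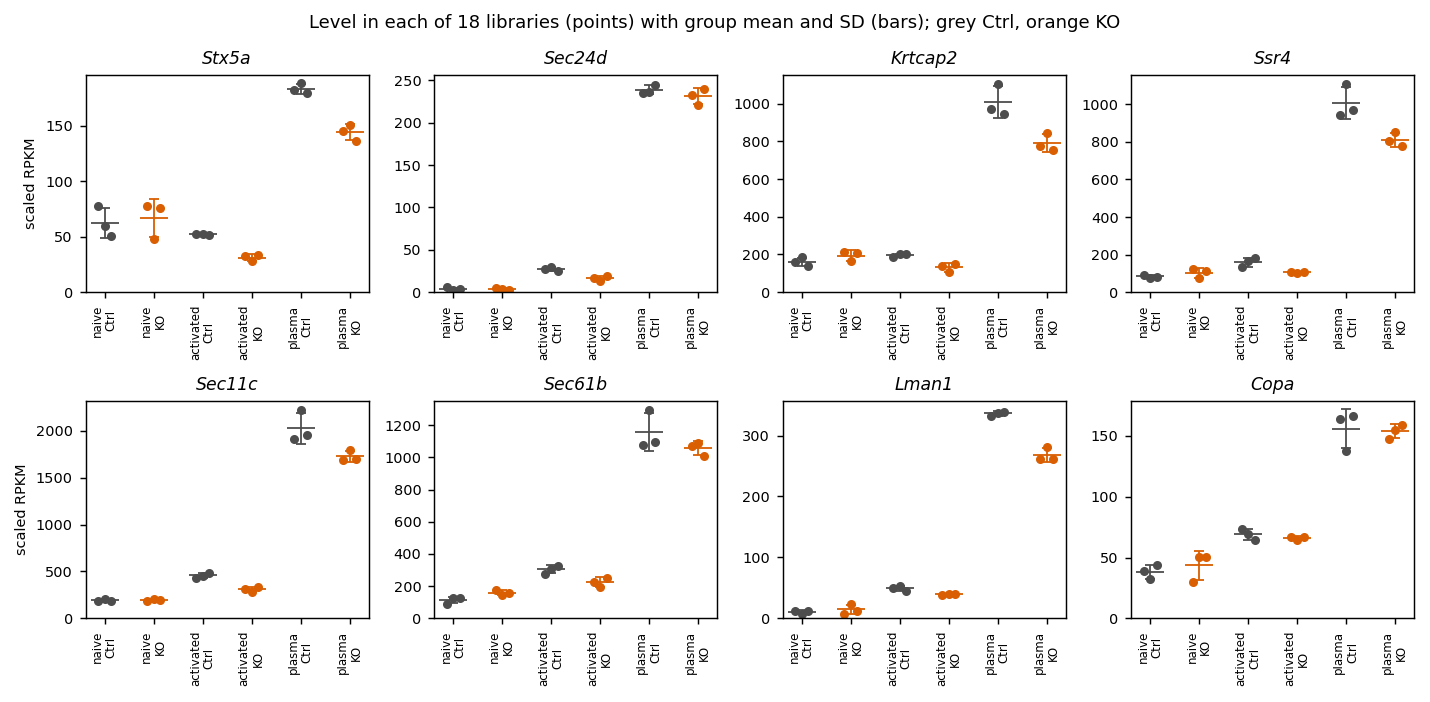
Scaled RPKM of 8 genes in each of the 18 libraries (points), with group mean and SD (bars), grey for Ctrl and orange for KO. Stx5a, Sec24d, Krtcap2, Ssr4, Sec11c, Sec61b and Lman1 are lower in activated KO than in activated Ctrl without overlap, Copa overlaps, and Sec24d in plasma cells is alike in level at 239 ± 5.26 and 231 ± 9.17.

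The GACGTGG core was found in a smaller share of the genes that were lower than of those not called. Among genes with a promoter window it was in 3 of 25 lower genes (12%), namely Sec24d, Sec63 and Stx5a, and in 9 of 23 genes not called (39.1%). No test was made of these counts. The core was in 9 of 17 coat genes and in 2 of 18 genes of the ER membrane groups, so motif and role cannot be told apart here.

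Other features of the activated libraries moved with genotype. The RNA of a list of transcription factors and sensors was lower, with 10 of 15 called lower and 0 higher (10 at an unadjusted p under 0.05). The list joins factors of the secretory program with genes of the unfolded protein response such as Ddit3, Atf4 and Eif2ak3, and not all of them drive secretion. Of all tested genes, 7.62% were called lower and 6.84% higher. Xbp1 went from 406 ± 9.34 in Ctrl to 210 ± 35.6 in KO (-0.96, SE 0.11, adjusted p = 4.89e-05), Creb3l2 from 10.98 ± 1.55 to 4.42 ± 2.08 (-1.20, SE 0.18, adjusted p = 0.000685) and Prdm1 from 31.5 ± 5.43 to 17.2 ± 3.85 (-0.85, SE 0.14, adjusted p = 0.00105). The calls of 3 of the 10, Creb3, Atf6b and Creb3l1, were lost without at least 4 of the 6 activated libraries taken 1 at a time. In the limma fit of all 18 libraries only the calls of Xbp1 and Ddit3 held. Those lost included Prdm1 (adjusted p = 0.22) and Creb3l2 (adjusted p = 0.208). All 7 plasma cell markers were detected, and their summed RPKM was 770 to 866 in activated Ctrl and 351 to 451 in activated KO. Most of that sum was Xbp1 and Jchain, the latter at 328 ± 48.3 and 127 ± 8.52 (-1.36, adjusted p = 1.5e-06 by limma). Prdm1, Sdc1 and Slamf7 were also called lower. Irf4 (-0.12, adjusted p = 0.602) and Tnfrsf17 (0.12, adjusted p = 0.768) were not called. Sdc1, which encodes CD138, was at 0.734 to 1.28 in activated Ctrl and 0.455 to 0.644 in activated KO, against 163 to 188 in plasma cell Ctrl. The 7 B cell markers used together were at 3122 to 3560 in activated Ctrl and 2342 to 2479 in activated KO. Of these, Cd79a (-0.56, adjusted p = 0.00248) and Cd79b (-0.58, adjusted p = 0.00204), which form the signalling part of the B cell receptor, were lower, and the other 5 were not called, with Cr2 (0.10) and Fcer2a (0.25) positive. The 2 erythroid markers of 6 listed summed to 4.02 to 4.98 and 14.7 to 23.0. That sum was nearly all Hbb-bs (1.99, adjusted p = 0.0824), and Hba-a2 went from 0.125, 0.428 and 0.86 in Ctrl to 0.229, 0 and 0.232 in KO. Activated KO replicate 3, with the lowest estimated depth of the activated libraries, had the monocyte and macrophage marker Lyz2 at 26.3. Lyz2 was at 1.14 and 0.581 in KO replicates 1 and 4 and at 0.458 to 2.27 in activated Ctrl. Without KO replicate 3, 23 of the 29 calls held. No marker in the table was at 0 in all libraries of a group. The part of these differences in the lower levels of the 59 genes was not tested.

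In plasma cells fewer KO changes passed. Of the 59, 10 were lower and 0 higher by limma (27 at an unadjusted p under 0.05), where 3.01% of all genes were called lower and 3.15% higher, and 55 had a negative sign, with a median of -0.14 against 0.00 over all tested genes. In 38 every KO library lay below every Ctrl library, as in 13.6% of all genes. Targeting genes made up 4 of the 10, namely Srp54a, Srp9, Srprb and Srpr. The others were Sec63, Ssr2, Sec24a, Tmed10, Lman1 and Stx5a. Signal peptidase, oligosaccharyltransferase, COPI and KDEL receptors had 0 calls of 5, 9, 7 and 2, and 3, 3, 1 and 1 at an unadjusted p under 0.05.

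Sec24a had the largest change in plasma cells. It measured 30.5, 29.9 and 31.9 in Ctrl and 20.4, 20.7 and 21.7 in KO (-0.53, SE 0.10, adjusted p = 0.00595), with no overlap. Lman1 measured 332, 338 and 339 in Ctrl and 262, 282 and 262 in KO (-0.32, SE 0.07, adjusted p = 0.0113). Stx5a measured 182, 188 and 180 in Ctrl and 145, 150 and 136 in KO (-0.35, SE 0.07, adjusted p = 0.0111). All 3 were clearly separated between genotypes. Srprb was lower by -0.29 (SE 0.06, adjusted p = 0.0118), Sec63 by -0.32 (SE 0.07, adjusted p = 0.0154) and Ssr2 by -0.29 (SE 0.07, adjusted p = 0.0233). Krtcap2, Ssr4 and Sec11c, which were among the larger changes in activated cells, measured -0.35 (adjusted p = 0.077), -0.31 (adjusted p = 0.0794) and -0.23 (adjusted p = 0.131). Their plasma cell groups did not overlap, with Sec11c at 1916, 2217 and 1952 in Ctrl and 1690, 1794 and 1694 in KO.

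The plasma cell calls were fragile. Leaving out 1 plasma cell library left 5 calls without Ctrl replicate 1, 6 without Ctrl replicate 3 or 4, 2 without KO replicate 1 or 4 and 7 without KO replicate 3, and Sec24a was the gene that stayed called each time. The highest adjusted p of the other 9 lay between 0.0526 (Srprb, without KO replicate 1) and 0.13 (Srp9, without KO replicate 4). In a fit of all 18 libraries 0 of the 59 were called by limma in plasma cells. With RPKM as deposited 5 were lower, and the share of called genes that were higher went from 51.1% to 68.7%. The sum of the 7 B cell markers ran from 1298 to 1634 in Ctrl libraries of plasma cells and from 940.9 to 1084 in KO libraries. Cd79a was lower (-0.82, adjusted p = 0.000187), Cr2 (0.66, adjusted p = 0.000495) and Fcer2a (0.57, adjusted p = 0.00637) were higher, and the other 4 were not called. For the 7 plasma cell markers it ran from 8625 to 9673 and from 7944 to 8912. The T cell gene Cd3e was at 0 to 0.121 in Ctrl and 7.19 to 10.2 in KO, while Cd4, the other T cell marker of 6 listed that is in the table, was at most 0.108 in Ctrl and 0.0739 in KO. KO replicate 4 stood apart in other markers, with Hbb-bs at 26.7, Hba-a2 at 18.7, Csf1r at 6.35 and Adgre1 at 5.48. The other 5 plasma cell libraries had at most 0.757 of Hbb-bs, 0.764 of Hba-a2, 0.889 of Csf1r and 0.862 of Adgre1. Their part in the result was not tested.

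Whether the KO effect differed between plasma and activated cells was tested directly. Only Sec24d passed, by limma, with 1.25% of all genes called higher and 0.375% lower (9 of the 59 at an unadjusted p under 0.05). Its KO change was -0.72 in activated cells and -0.05 in plasma cells, where it measured 235, 236 and 245 in Ctrl and 233, 222 and 240 in KO, a difference of 0.67 (SE 0.14, adjusted p = 0.0255). That call was lost without activated Ctrl replicates 1 or 3, plasma cell Ctrl replicates 1 or 3, or plasma cell KO replicates 1 or 4, with adjusted p up to 0.0749. It was also lost in the fit of all 18 libraries. Stx5a followed at 0.39 (SE 0.10, adjusted p = 0.0757). For the other genes a change called in 1 cell type and not in the other is therefore not shown to differ between them.

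In naive B cells the calls went the other way. By limma 4 of the 59 were higher in KO and 0 lower (7 at an unadjusted p under 0.05), with 2.1% of all genes called higher and 5.12% lower and a median of 0.05 against -0.09. Mcfd2 measured 10.1, 10.5 and 8.81 in Ctrl and 20.0, 17.2 and 20.1 in KO (0.89, SE 0.13, adjusted p = 0.000876). Sec61b measured 91.5, 125 and 125 in Ctrl and 176, 146 and 156 in KO (0.49, SE 0.12, adjusted p = 0.0241), and Copb1 was higher by 0.48 (SE 0.11, adjusted p = 0.0122). These 3 had groups that did not overlap, as did 4.32% of all genes in that direction. Spcs1, the fourth (0.53, SE 0.16, adjusted p = 0.0485), measured 35.1, 42.1 and 29.6 in Ctrl and 37.8, 56.0 and 63.6 in KO, which overlap. In a fit of the naive libraries alone 0 of the 59 and 0 of all tested genes were called, and the same held with library weights in limma. Sec61b was not called without naive Ctrl replicate 1 or KO replicate 1, nor Spcs1 without Ctrl replicates 1 or 3 or KO replicates 2 or 3. With quantile normalization 52.3% of all called genes were higher, against 29.1%.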

How the data were processed

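RNA from sorted or bead-enriched cells was made into libraries with SMART-seq v4 and Nextera XT, per the labels' protocols. This chemistry keeps no strand, so overlapping genes on opposite strands share reads. The authors deposited a table of RPKM values for 12960 genes; the submitters' processing notes name STAR and mm10. Tool versions, gene models and the counting step were not given in the sources used here. Each library was scaled by its median-of-ratios factor (0.903 to 1.07, from 8012 genes) and taken as log2(value + 1). The 12787 genes with a mean of at least 1 in 1 or more of the 6 groups were tested, and 173 were left out. The test was limma with an intensity trend, two-sided, with Benjamini-Hochberg adjustment over all tested genes. Comparisons without naive cells were fitted on the 12 libraries from LPS-treated mice, because naive libraries were known from earlier processing to vary more, and comparisons with naive cells on all 18. Ratios of related genes were compared by exact permutation. The procedure was tested on simulated data.

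The 59 genes and the lists of related genes and markers were chosen with earlier results of these data known. One B cell marker is not reported here. Within each role, up to 4 called genes with the largest change are named, or the smallest adjusted p where none was called, with both genes of each related pair, Ehmt2, and up to 4 called genes per related list. Depth was estimated from the steps between low RPKM values. In pairing checks the deviations of same-numbered replicates had correlations from -0.21 to 0.31, and the replicates were not treated as pairs. Gene positions came from GENCODE M21 (GRCm38) and promoter windows from RefSeq (GRCm38.p6). Alternatives were other scalings, pseudocounts, filters, library weights, other sets of libraries in the fit, a replicate block and leaving out each library. Software was R 4.3.3, limma 3.58.1, Python 3.11.15, numpy 2.4.6, pandas 2.3.3, scipy 1.17.1 and matplotlib 3.10.9.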

Additional observations from a re-analysis of the deposited data

Results flagged for a closer look

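Sec24d was singled out because the KO change in plasma cells minus that in activated B cells, 0.67, passed the test of the difference itself (adjusted p = 0.0255 by limma, n = 3 libraries per group). It was 1 of the 59 genes (1.69%), a share close to the 1.25% of all tested genes called higher. The call was lost in 6 of 12 fits without 1 library and in the fit of all 18. It is therefore not read as a result about the 59.

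In 3 genes every naive KO library lay above every naive Ctrl library while the opposite held in another cell type. This was the case for Sec61b (0.49 in naive, -0.44 in activated cells), for Mcfd2 (0.89 in naive, -0.44 in activated and -0.34 in plasma cells) and for Copb1 (0.48 in naive, -0.10 in plasma cells). Neither Mcfd2 nor Copb1 was called in plasma cells. Upward separation in naive KO cells was found in 3 of the 59 genes and in 4.32% of all tested genes, which is a close share. Downward separation was common among the 59, with 36 genes in activated and 38 in plasma cells. Opposite directions in 3 genes are therefore not read as a result about the 59. The differences between naive and other cells were not tested. Groups of 3 libraries are too small for a test of single outlying libraries.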

How the results depend on the processing

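In activated B cells 29 genes were lower; 21 to 29 were called without 1 library, 28 to 32 under other scalings, pseudocounts, filters and library weights, 28 with a replicate block, 21 in a fit of the 6 activated libraries, and 5 when naive libraries joined the fit (all 18). Over all tested genes that last fit called 54 higher and 174 lower in place of 875 and 975, so the share higher was 23.7% and not 47.3%. The genes called in each of these settings were Krtcap2, Sec11c, Sec61g, Ssr4 and Stx5a. In plasma cells 10 were lower; 2 to 7 were called without 1 library, 5 with RPKM as deposited, 5 with quantile normalization, 16 with library weights, 10 with a replicate block and 0 in the fit of all 18 (71.8% of called genes higher). In naive cells 4 to 8 were called without 1 library, 0 with library weights and 0 in a fit of naive libraries alone. Over all tested genes the share higher was 42.8% with the filter at a mean of 5 and 41.1% with a pseudocount of 0.1, in place of 29.1%. For the difference between plasma and activated cells, 0 to 1 were called without 1 library, 5 with quantile normalization, 2 with library weights and 0 in the fit of all 18, where all 20 called genes were higher (100% in place of 76.9%). The step from naive to activated cells had 48 to 52 calls, and with the filter at 5 the all-gene median was -0.05 and the share higher 46.7%. The steps to plasma cells had 57 to 59 calls. No result reversed under any of these settings, and the cause of the changed counts was not tested. Replicate numbers were not used as pairs: correlations of deviations between same-numbered libraries ran from -0.21 to 0.31. Those between plasma cell Ctrl and KO were 0.068, 0.195 and 0.312, and groups of 3 are too small to exclude pairing. With the replicate block the counts of the 7 comparisons were 28, 10, 5, 1, 50, 58 and 58. The block ended the calls of Lman2 in activated KO cells (adjusted p = 0.0644) and of Sec31a from naive to activated cells.

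Depth was estimated and not counted, 1 naive library gave no estimate, and 3 libraries per group limit what can be called.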

Other observations

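Genes that work beside the 59 were read from lists of the same pathway. In activated B cells, other translocation factors had 5 of 22 lower in KO and 0 higher, where 7.62% of all tested genes were called lower and 6.84% higher. Hspa13, an ER-associated chaperone relative, went from 14.1 ± 0.268 to 7.93 ± 0.568 (-0.76, SE 0.07, adjusted p = 1.18e-05). The translocating-chain proteins Tram2 (-0.83, SE 0.09, adjusted p = 5.74e-05) and Tram1 (-0.46, SE 0.07, adjusted p = 0.000854) and the SRP gene Srp54b (-0.45, SE 0.09, adjusted p = 0.00596) were lower too. Srp54b could share reads with its near-identical copy Srp54a, so it may not be a separate observation. Enzymes that build the glycan and its sugar donors had 5 lower (15.6%) and 3 higher (9.38%) of 32, the latter a share close to that of all genes. Gmppa and Gmppb, which form GDP-mannose pyrophosphorylase, were lower by -0.47 (SE 0.07, adjusted p = 0.000586) and -0.34 (SE 0.07, adjusted p = 0.00492), and the mannosyltransferases Alg3 (0.30) and Alg9 (0.29) were higher, though both calls were lost when single libraries were left out. Glycan trimming and folding had 6 of 18 lower and 0 higher, led by Mgat2, which opens a branch of the complex glycan (-0.40, SE 0.08, adjusted p = 0.00313).

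In the same cells other vesicle transport genes had 8 lower and 1 higher of 33. The SNARE gene Bet1 went from 36.5 ± 1.77 to 22.8 ± 5.29 (-0.68, SE 0.12, adjusted p = 0.00216). Bcap29, an ER export protein, was the 1 that was higher, from 34.7 ± 3.94 to 53.9 ± 5.82 (0.62, SE 0.10, adjusted p = 0.00128). COPI and Golgi retrieval had 5 of 23 lower and 0 higher. Arfgap3, which triggers uncoating of COPI vesicles, went from 16.4 ± 1.06 to 8.08 ± 0.621 (-0.94, SE 0.08, adjusted p = 5.42e-06). Arf4, a GTPase of the early Golgi, was lower by -0.43 (SE 0.07, adjusted p = 0.00138). Kdelr3, the third KDEL receptor, was lower by -0.69 (SE 0.16, adjusted p = 0.0113), at 1.22 ± 0.289 and 0.398 ± 0.353.

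In plasma cells the same lists gave 2 of 22, 1 of 32, 2 of 18, 2 of 33 and 2 of 23 lower and 0 higher, against 3.01% of all tested genes called lower and 3.15% higher. With so few calls these shares are not read as results about the lists. The list of transcription factors and sensors had 2 of 15 lower, Creb3l1 (-1.01, SE 0.16, adjusted p = 0.00206) and Ddit3 (-0.69, SE 0.16, adjusted p = 0.0174). Kdelr3 measured 24.3 ± 0.699 in plasma cell Ctrl and 14.4 ± 0.776 in KO (-0.72, SE 0.16, adjusted p = 0.0172). Of the plasma cell calls in these lists, that of Creb3l1 was the 1 that held whichever plasma cell library was left out.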
